A study of Mus musculus with 4 samples.

Results

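Myelin is the lipid-rich sheath that oligodendrocytes wrap around axons. The 9 genes described here, Mbp, Mag, Mog, Mobp, Cnp, Cldn11, Ermn, Opalin and Ugt8a, encode myelin proteins, an enzyme of myelin lipid synthesis and surface or cytoskeletal proteins of the mature oligodendrocyte. They were chosen by name, with earlier results of these data known. Each was found by its Ensembl identifier among the 55421 genes listed in the count data. The mouse cultures came from the prefrontal cortex (PFC) of wild-type C57BL/6 pups at postnatal day 0, and all were grown for 10 days in neurobasal medium with B27 supplement. The treated cultures received fibroblast growth factor 2 (FGF2) at 5 ng/mL and the controls no FGF2, with 2 libraries of each kind, and no cell type was sorted out before the RNA was taken. The libraries of a group are numbered 1 and 2, and nothing states that they came from separate cultures, so the p-values may measure technical spread only. The authors call their replicates technical for all but 2 human fetal ages, without naming the mouse cultures. The comparison was made to learn whether effects of FGF2 seen in human cortical tissue also occur in another species.

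In the cortex, oligodendrocytes form from dividing precursor cells that carry PDGFRA and NG2. The precursors leave the cell cycle, pass through a newly formed stage marked by genes such as Enpp6, Bcas1 and Gpr17, and then switch on the myelin genes under the transcription factors SOX10 and MYRF. Mog, Opalin and Ermn are known as late genes of this series, whereas Cnp and Mbp come on earlier. FGF2 is a known mitogen of the precursors.

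The libraries held 9166432 to 10799886 counts on genes. Levels are given in CPM, a gene's counts with each library brought to a total of 1000000 counts on genes and adjusted between libraries by the TMM method. A level of 3 counts, taken as the detection floor, corresponds to 0.276 to 0.330 CPM, and this floor covers counting error only. All 4 libraries were measured in bulk, so a larger number of oligodendrocytes and more RNA of a gene per cell cannot be told apart.

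The myelin genes that were well measured were all higher with FGF2, and of the late genes Mog and Ermn were near or below the detection floor in both groups and Opalin below it in the controls. Together the 9 genes reached 936 and 930 CPM in the libraries with FGF2, against 200.01 and 199 CPM without, a ratio of the means of 4.68. Mbp made up 49.5% to 52.7% of this sum in each library and Cnp 28.8% to 34.3%. Of the 9 genes, 7 passed the expression filter of edgeR and all 7 had an adjusted p-value below 0.05 (edgeR quasi-likelihood test, Benjamini-Hochberg adjustment over all tested genes), each with a higher level with FGF2. Among all 17144 tested genes, 20.7% were higher with FGF2 by the same rule and 19.9% were lower. The median log2 fold change of the 7 genes was 2.58, whereas that of all tested genes was -0.00082, and 1.53% of all tested genes had a value over 2. Opalin passed the filter only through the libraries in which it was high, and Mog and Ermn did not pass. Without Opalin, the 6 genes with at least 10 counts in every library had a median of 2.38. The libraries of the 2 groups did not overlap for any of these 6 genes, where 33.6% of all tested genes were separated with the higher level with FGF2. Opalin did not overlap either, the libraries of Ermn did, and those of Mog lay at 1 to 4 counts, where no separation can be read.

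**Figure D1:**
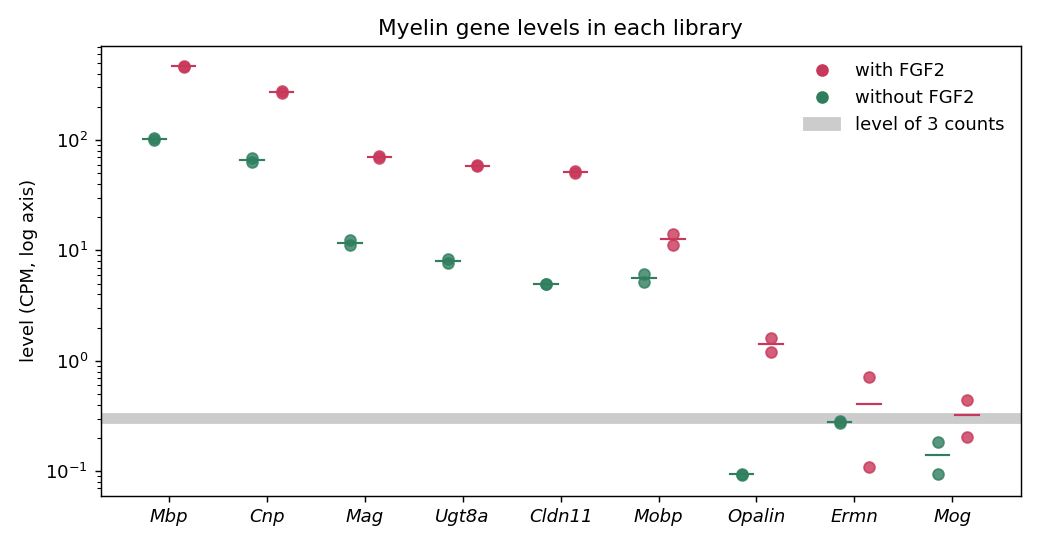
Level of each of the 9 myelin genes in each library, in CPM on a log axis. Points are libraries with FGF2 (red, right) and without FGF2 (green, left), short lines are group means, and the grey band is the level of 3 counts, 0.276 to 0.330 CPM. The 6 genes from Mbp to Mobp lie above the band in every library and higher with FGF2, while Ermn and Mog lie around it.

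Mbp encodes myelin basic protein, which holds the cytoplasmic faces of compact myelin together. It had 463 and 464 CPM in the libraries with FGF2 and 100.1 and 105 CPM in those without. Its log2 fold change was 2.18 (standard error 0.05), and its adjusted p-value was too small to be written as a number other than zero. Every library with FGF2 was thus far above every control library, and the spread within each group was small. The Mbp gene, on chromosome 18, also carries the longer Golli transcripts, which are made in other cell types too, and the counts do not separate them.

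Cnp encodes the enzyme 2',3'-cyclic-nucleotide 3'-phosphodiesterase of the cytoplasm-filled channels of myelin, and lies at chr11:100574904-100591729 of mm10 on the plus strand. Its level was 279 and 268 CPM with FGF2 and 68.6 and 63.5 CPM without FGF2. The log2 fold change of Cnp was 2.05 (standard error 0.06, edgeR adjusted p = 1.18e-276). Cnp shares 154 exon bases with Dnajc7 on the opposite strand. Dnajc7 was counted 1393 and 1397 times in treated and 1518 and 1673 times in control libraries, so its counts did not move up with those of Cnp.

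Mag encodes myelin-associated glycoprotein, the adhesion molecule of the innermost myelin layer next to the axon, and lies at chr7:30899176-30914873 on the minus strand. It was measured at 72.1 and 69.4 CPM with FGF2 and at 12.3 and 11.2 CPM without FGF2. The log2 fold change of Mag was 2.58 (standard error 0.11, edgeR adjusted p = 1.07e-115), a ratio of the means of 6.00. The 2 groups were well separated.

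Mobp encodes a small basic protein of compact myelin and lies at chr9:120149707-120181484 on the plus strand. The treated libraries held 102 and 140 counts and the controls 54 and 67, which is 11.2 and 14.2 CPM against 5.13 and 6.17 CPM. Mobp rose least of the tested myelin genes, by 1.17 on the log2 scale (standard error 0.21, edgeR adjusted p = 9.85e-08). With each library left out in turn, this value stayed between 0.98 and 1.32. Mobp shares 79 exon bases with Gm38642 on the same strand, which had 0 to 5 counts.

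Ugt8a encodes the ceramide galactosyltransferase that makes galactosylceramide, a main lipid of myelin, and lies at chr3:125865271-125938619 on the minus strand. It had 58.7 and 58.8 CPM with FGF2 and 8.35 and 7.65 CPM without FGF2. The log2 fold change of Ugt8a was 2.88 (standard error 0.13, edgeR adjusted p = 8.49e-110). Another 4 genes of lipid metabolism, picked after their values were seen from the list of other myelin genes described further on, are given here beside it. Fa2h, which hydroxylates the fatty acids of myelin lipids, rose by 2.62 on the log2 scale (edgeR adjusted p = 3.19e-37), and Gal3st1, which makes sulfatide from galactosylceramide, by 1.74 (edgeR adjusted p = 2.54e-12). Gltp, a glycolipid transfer protein, rose by 1.18 and Cers2, a synthase of very long chain ceramides, by 0.44 (edgeR adjusted p = 5.67e-29 and 5.91e-08).

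Cldn11 encodes the claudin of the tight junctions between myelin layers and lies at chr3:31149920-31164324 on the plus strand. It had 50.3 and 52.9 CPM with FGF2 and 4.94 and 4.97 CPM without FGF2. Among the 6 well measured genes it rose most, by 3.38 on the log2 scale (standard error 0.14, edgeR adjusted p = 8.75e-118), and the means differed 10.4-fold. Cldn11 is also made by cells of the meninges. Of 9 meningeal fibroblast markers, 6 were tested, of which 1 (Pdgfrb) was higher, 2 (Col1a1 and Col1a2) were lower and 3 did not pass the threshold. Among all tested genes 20.7% were higher and 19.9% lower, so these few calls are no trait particular to this list. A part of meningeal cells in the level of Cldn11 was not tested. Col1a1 was counted 14 and 20 times in treated and 92 and 83 times in control libraries, and Lum had 1 to 4 counts in any library. The sum of the 9 markers was 55.3 to 59.9 CPM with FGF2 and 49.5 to 51.4 CPM without, most of it Pdgfrb.

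The late genes were scarce. Opalin, a membrane glycoprotein of mature oligodendrocytes at chr19:41061710-41077113 on the minus strand, was counted 11 and 16 times in the treated libraries and 1 time in each control library. The summed counts of 27 against 2 give a ratio of 15.0 after scaling by library totals, with an exact 95% interval for counting error from 3.78 to 131. The fitted log2 fold change of 3.76 (standard error 0.89, edgeR adjusted p = 0.000123) depends on the prior count used for low values. Mog, the myelin oligodendrocyte glycoprotein of the outermost myelin surface at chr17:37010743-37023398 on the minus strand, reached 4 and 2 counts in treated libraries against 1 and 2 in controls. Its ratio was 2.23 with an interval from 0.476 to 13.8, so a difference was not detectable at this depth. Ermn, the actin-binding protein ermin at chr2:58045113-58052864 on the minus strand, reached 1 and 7 counts in treated libraries against 3 and 3 in controls. Its ratio was 1.49 (0.452 to 5.20), and its groups overlapped. In a search of the longest transcripts for matching stretches in transcripts of other genes (100 bases or longer, 95% identity or more), Ermn alone of the 9 genes gave matches. It has 240 identical bases in Galnt5, which overlaps it on the opposite strand and had 0 counts in every library. Ermn and Galnt5 share 237 exon bases there, so this match is mostly their overlap and not a copy elsewhere. Another match has 105 bases at 95.2% identity in Vmn2r79. Reads of such stretches are hard to assign, which can lower the count.

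The order of the genes by level was read per kilobase of exonic length. With FGF2 it ran from Cnp (75.2 ± 2.13 CPM per kilobase, SD, n = 2) and Mbp (54.8 ± 0.111) over Cldn11 (27.6 ± 0.979), Mag (17.4 ± 0.477) and Ugt8a (13.0 ± 0.0180) to Mobp (1.85 ± 0.308) and then the 3 scarce genes. Without FGF2 Cnp (18.2 ± 1.00) and Mbp (12.1 ± 0.399) again led, but Mag (2.90 ± 0.191) stood above Cldn11 (2.65 ± 0.0146), Ugt8a (1.76 ± 0.1103) and Mobp (0.825 ± 0.108). Neighbours in this order were separated in every library of a group, except at the detection floor. Mog and Ermn overlapped in both groups. Ermn and Opalin had 3 and 1 counts in each control library, where no separation can be read. Mag stood only narrowly above Cldn11 without FGF2, at 3.03 and 2.76 against 2.64 and 2.66 CPM per kilobase, with 52 and 54 counts of Cldn11. The order of the leading genes depends on the length used. Per kilobase of the longest transcript, Mbp (96.7) passed Cnp (94.2) and Mag (29.1) passed Cldn11 (27.6) with FGF2, while the order without FGF2 stayed as it was.

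The rise was uneven across the set. Cldn11 exceeded Ugt8a by 0.50 on the log2 scale with a combined standard error of 0.19, Mag exceeded Mbp by 0.41 (combined standard error 0.12) and Cnp exceeded Mobp by 0.88 (combined standard error 0.21). Each of these gaps was more than 2.5 times its error. In contrast, Ugt8a and Mag differed by 0.29 with a 95% interval from -0.04 to 0.62, Mbp and Cnp by 0.13 (-0.02 to 0.27) and Opalin and Cldn11 by 0.38 (-1.39 to 2.15), so these neighbours were not separated. As shares of the summed level, Cldn11 went from 2.47% and 2.50% without FGF2 to 5.38% and 5.69% with FGF2. Mobp went the other way, from 2.56% and 3.10% to 1.197% and 1.53%. Mbp held 50.1% and 52.7% of the sum without FGF2 and 49.5% and 49.9% with FGF2.

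**Figure D2:**
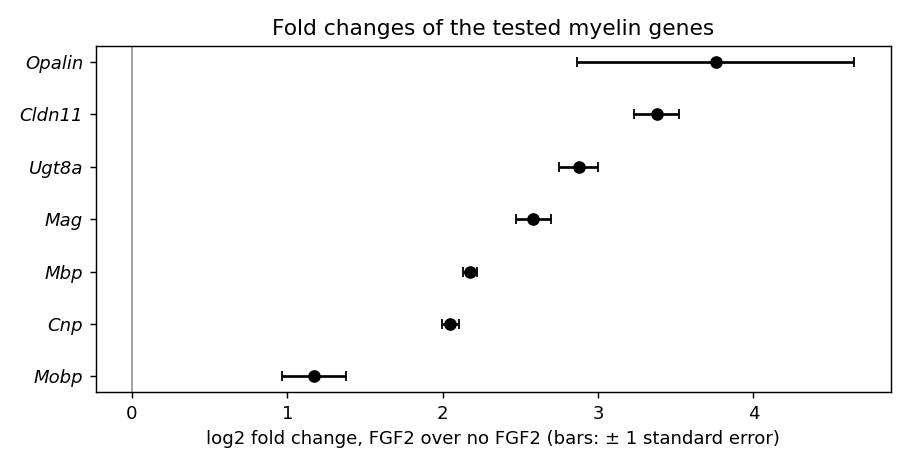
Log2 fold change (FGF2 over no FGF2) of the 7 tested myelin genes, with bars of 1 standard error from the edgeR fit. The values run from 1.17 for Mobp to 3.76 for Opalin, and Opalin, with 1 count in each control library, has the widest bar.

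The sequences before the start sites are shown for 5 of the 6 well measured genes, since these genes moved together. RefSeq start sites of the GRCm38.p6 build were matched for 8 of the 9 genes, and Mbp was not matched. Capitals mark the letters searched on both strands, which were ACAAAG and ACAATG for SOX factors, CTGGCAC and CTGGTAC for MYRF, CAGCTG and CATCTG for factors that bind E-boxes, TATAAA for the TATA box and GGGCGG for the GC box. A word on the other strand appears as its reverse complement, such as CTTTGT for ACAAAG. Each run ends before the first annotated exon base, so the GC boxes of Cnp, which lie closer to its start site, are not shown, and of the 3 listed starts of Mag the most upstream is used.
Cldn11, chr3:31149670-31149919, plus strand: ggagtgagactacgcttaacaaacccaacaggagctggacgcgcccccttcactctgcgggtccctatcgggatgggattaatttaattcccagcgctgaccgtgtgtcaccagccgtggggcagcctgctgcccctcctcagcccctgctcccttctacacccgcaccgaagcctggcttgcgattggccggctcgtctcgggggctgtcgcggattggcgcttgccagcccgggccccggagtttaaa
Ugt8a, chr3:125938653-125938902, minus strand: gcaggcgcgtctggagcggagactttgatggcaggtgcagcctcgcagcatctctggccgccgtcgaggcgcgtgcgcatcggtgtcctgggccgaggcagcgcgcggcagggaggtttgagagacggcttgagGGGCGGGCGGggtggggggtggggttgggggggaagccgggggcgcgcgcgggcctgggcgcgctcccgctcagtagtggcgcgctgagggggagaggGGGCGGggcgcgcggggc
Mag, chr7:30914923-30915172, minus strand: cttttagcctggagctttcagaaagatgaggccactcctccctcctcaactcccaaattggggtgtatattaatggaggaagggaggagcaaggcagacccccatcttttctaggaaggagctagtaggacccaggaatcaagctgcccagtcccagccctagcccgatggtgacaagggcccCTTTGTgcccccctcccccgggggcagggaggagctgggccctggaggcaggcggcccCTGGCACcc
Cnp, chr11:100574689-100574903, plus strand: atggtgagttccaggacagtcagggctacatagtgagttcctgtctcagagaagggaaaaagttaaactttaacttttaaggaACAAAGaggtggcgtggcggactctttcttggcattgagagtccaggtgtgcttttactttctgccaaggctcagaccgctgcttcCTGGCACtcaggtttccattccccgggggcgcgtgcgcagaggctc
Mobp, chr9:120149492-120149706, plus strand: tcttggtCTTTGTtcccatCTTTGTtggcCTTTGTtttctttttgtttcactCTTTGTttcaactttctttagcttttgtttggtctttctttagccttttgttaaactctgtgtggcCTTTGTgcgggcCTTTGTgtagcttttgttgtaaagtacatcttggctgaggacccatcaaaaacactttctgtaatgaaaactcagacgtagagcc

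These windows have little in common beyond their position. In the 250 bases before a start site, ACAAAG was found for 4 of the 8 genes (Cnp, Mag, Mobp and Opalin), with 6 matches in Mobp. Counted by start site, 5 of the 10 of these 8 genes and 16.5% of all 32851 listed hold it. CTGGCAC was found for Cnp and Mag, at 3 of the 10 start sites, and in 4.19% of all start sites. For ACAAAG and CTGGCAC alike, 2 of the start sites counted are of Mag. Their windows overlap and hold the same copy of each word. CTGGTAC was found for Mog and in 1.83%, ACAATG for Ermn and in 10.7%, and CATCTG for Opalin and in 14.4%. The GC box was found for Cnp and Ugt8a and in 32.7%, while CAGCTG (13.0% of all) and TATAAA (12.4% of all) were found in none of the 8. The windows of Ugt8a and Cldn11 held 12.8 and 7.6 CpG per 100 bases, against a median of 2.4 over all start sites, and that of Mobp held 1.6. A match of such short letters is a description of the sequence and does not show binding.

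Other myelin and mature oligodendrocyte genes were described from a list of 27, of which 22 were tested. At the adjusted threshold 15 were higher, 3 were lower and 4 did not pass, with a median log2 fold change of 0.99. Among all tested genes 20.7% were higher and 19.9% lower. Bcas1, a marker of early myelinating cells, had 474 ± 24.7 CPM with FGF2 and 62.6 ± 1.19 without (SD, n = 2), a log2 difference of 2.92. Tmem88b, Gjc3 and Trf, the iron carrier transferrin, rose by 2.46, 2.22 and 1.67 on the log2 scale. Sirt2, a deacetylase abundant in myelin, rose by 1.52. Apod fell by 0.88, Cmtm5 fell by 0.61 and Tppp fell by 0.28 on the log2 scale. Without replicate 1 of the controls 1 gene of this list (Cmtm5) remained lower, since Apod and Tppp no longer passed, with log2 fold changes of -0.78 and -0.22. Apod also missed the threshold without replicate 2 of the treated libraries (-0.76, edgeR adjusted p = 0.0803) and with DESeq2 (adjusted p = 0.161). As with Mog and Ermn, several genes of the mature cell were scarce in both groups. Klk6 had 0 counts in every library, which allows up to 0.330 CPM, and Ppp1r14a had 0 or 1. Aspa, which breaks down N-acetylaspartate, reached 1 and 6 counts in treated and 2 and 3 in control libraries, and Hapln2, of the nodes of Ranvier, had 3 and 17 against 4 and 10. Mal, a proteolipid of mature myelin, was measured at 1.36 ± 0.519 CPM with FGF2 and 1.45 ± 0.0969 without, and its log2 difference of -0.08 did not pass (edgeR adjusted p = 0.920).

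The transcription factors of the lineage were higher with FGF2 in 11 of 12 cases, with a median log2 fold change of 1.498. This includes Nkx6-2, which passed the filter only through the libraries with FGF2, and 10 were higher when at least 10 counts were required in every library. Over all tested genes the shares were 20.7% higher and 19.9% lower. Myrf, which is required for the myelin genes to be switched on, was counted 1554 and 1583 times in treated and 163 and 192 times in control libraries. Its log2 fold change was 3.32 (standard error 0.08). Sox10 rose by 2.41, Zfp488 by 2.64 and Nkx2-2 by 2.34 on the log2 scale. Nkx6-2, a factor of myelinating cells, reached 17 and 16 counts in treated and 0 and 2 in control libraries, a ratio of 18.4 with an interval for counting error from 4.70 to 158. Olig2, which marks the whole lineage, rose less (log2 fold change 1.04), and Olig1 least (0.37, edgeR adjusted p = 3.30e-06). Zfp536, a repressor of neuronal differentiation that is also expressed in the lineage, fell by 0.73 on the log2 scale.

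Genes of precursors and newly formed oligodendrocytes were higher in 10 of 12 cases, with a median of 1.33. This includes Neu4 (23 and 22 counts in treated and 7 and 2 in control libraries), and 9 were higher when at least 10 counts were required in every library. The shares over all tested genes were 20.7% higher and 19.9% lower. The steepest rises were in Bmp4, a ligand made by newly committed cells (log2 fold change 3.07), and Enpp6, an early marker of myelinating cells (3.02). Enpp6 was counted 1416 and 1645 times in treated and 184 and 240 times in control libraries. Gpr17 and Itpr2, both of the newly formed stage, rose by 2.60 and 2.25 on the log2 scale. Among precursor genes, C1ql1 rose by 1.43 and Lhfpl3 by 1.22 on the log2 scale. Pdgfra, the receptor that drives division of the precursors, had 265 ± 7.65 CPM with FGF2 and 159 ± 1.85 without (log2 fold change 0.74), and Cspg4, which encodes the proteoglycan NG2, rose by 0.56. Rras2 fell by 0.38, and missed the threshold with DESeq2 (adjusted p = 0.131) and without replicate 1 of the controls (-0.24, edgeR adjusted p = 0.231). Matn4 did not pass (-0.31, edgeR adjusted p = 0.593).

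**Figure D3:**
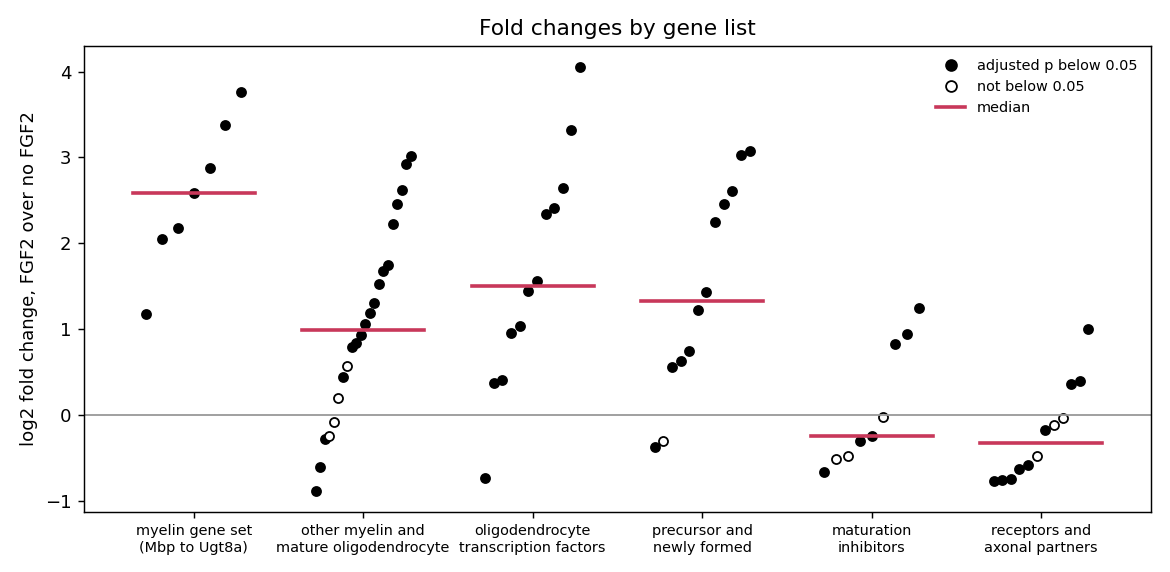
Log2 fold change (FGF2 over no FGF2) of every tested gene in the myelin gene set and in 5 further lists. Filled points have an adjusted p-value below 0.05, open points do not, and red lines are list medians, which are 2.58 for the myelin gene set, 0.99, 1.498 and 1.33 for the other oligodendrocyte lists, and -0.25 and -0.33 for maturation inhibitors and for receptors and axonal partners.

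The myelin genes were then compared with the lineage genes within each library, a ratio that does not depend on the scaling between libraries. Relative to Olig2, Mbp stood at 4.92 and 5.12 with FGF2 and at 2.20 and 2.36 without FGF2. Cnp, Mag, Ugt8a and Cldn11 were also higher relative to Olig2 with FGF2, by factors of 2.02, 2.92, 3.58 and 5.08, while the ratios of Mobp overlapped (0.119 and 0.157 against 0.113 and 0.139). Relative to the precursor gene Pdgfra, Mbp rose by a factor of 2.71 and Cldn11 by 6.25. Relative to Sox10 the picture differed by gene. Mbp stood at 3.43 and 3.51 with FGF2 and at 4.15 and 4.01 without FGF2, so it was lower relative to Sox10 with FGF2, as were Cnp (2.05 ± 0.0272 against 2.64 ± 0.297, SD, n = 2) and Mobp (0.0953 ± 0.0172 against 0.224 ± 0.0165). Cldn11 (0.387 ± 0.0196 against 0.197 ± 0.0103) and Ugt8a (0.440 ± 0.00726 against 0.319 ± 0.0383) were higher relative to Sox10. Mag was narrowly higher relative to Sox10, at 0.534 and 0.525 with FGF2 against 0.512 and 0.430 without. On the log2 scale the mean of the 9 genes minus the mean of Sox10, Olig1 and Olig2 was -2.64 ± 0.106 with FGF2 and -3.37 ± 0.0158 without, a difference of 0.73, which turned to -0.40 when Sox10 alone was the reference. Over the 6 genes with at least 10 counts in every library the difference was 1.09, and -0.044 with Sox10 alone. The ratios and differences to the lineage genes are descriptions and were not tested.

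**Figure D4:**
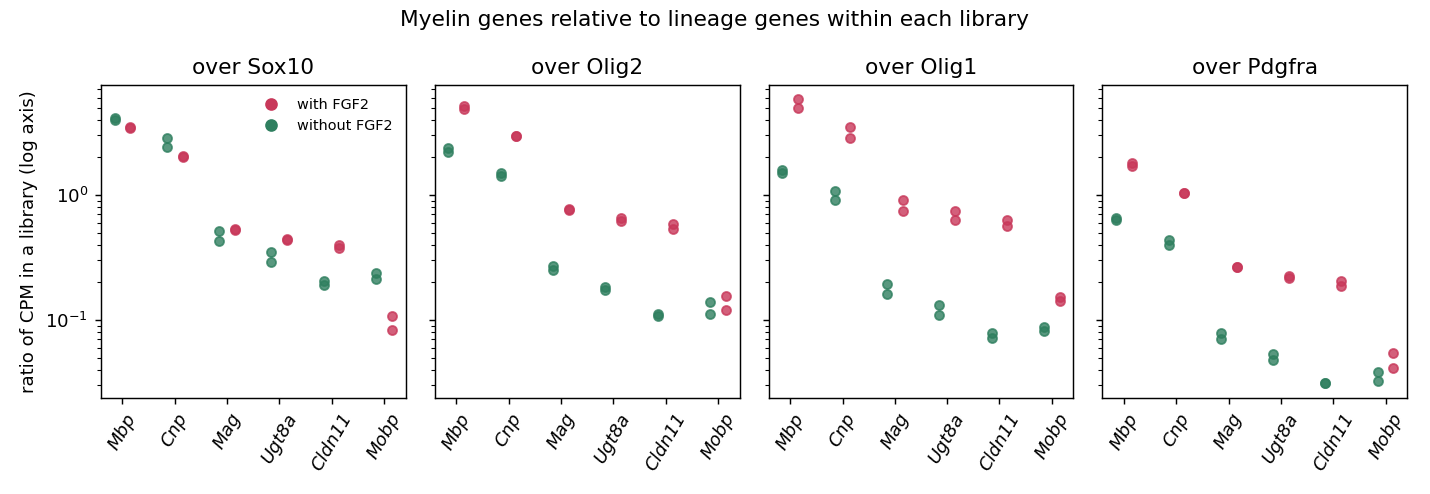
Ratio of the CPM of 6 myelin genes to that of Sox10, Olig2, Olig1 and Pdgfra in each library, on a log axis shared by the panels. Red points are libraries with FGF2 and green points libraries without FGF2. Relative to Olig1, all 6 genes are higher in both libraries with FGF2, whereas relative to Sox10 Mbp, Cnp and Mobp are lower.

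Genes known to hold back oligodendrocyte maturation went both ways, with 3 of 9 higher and 3 lower. Over all tested genes 20.7% were higher and 19.9% lower, so calls both ways are no trait particular to this list. Tmem98, which limits the cleavage of MYRF, rose by 1.24, Sox6, which keeps precursors undifferentiated, by 0.94 and the receptor Gpr37 by 0.82 on the log2 scale. Lingo1 fell by 0.67, Id2 fell by 0.30 and Id4 fell by 0.25, and with DESeq2 Lingo1 alone of these 3 passed (Id2 and Id4 had adjusted p = 0.0786 and 0.0707). Id4 also missed the threshold in edgeR without replicate 1 of the FGF2 libraries (adjusted p = 0.0575) and without replicate 2 of the controls (0.167). Hes1 and Hes5, targets of Notch, had log2 fold changes of -0.48 and -0.51 and did not pass (edgeR adjusted p = 0.172 and 0.127). They did pass with a library left out, Hes1 at -1.16 without replicate 2 with FGF2 and Hes5 at -0.89 without replicate 2 of the controls.

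The neuronal receptors and axonal partners of myelin proteins went both ways, with 6 of 12 tested genes lower and 3 higher. Among all tested genes 19.9% were lower and 20.7% higher, and the higher genes of this list were near that share. Rtn4r, the Nogo receptor that also binds MAG, fell by 0.76, and its relatives Rtn4rl1 and Rtn4rl2 fell by 0.58 and by 0.78 on the log2 scale. Cntn2, an axonal adhesion molecule near the node, fell by 0.63. Nfasc, whose isoforms are made by neurons and by oligodendrocytes, rose by 1.00, and Cadm4, the adhesion molecule on the myelin side, by 0.39. With DESeq2 the log2 fold changes of Rtn4r, Rtn4rl1 and Rtn4rl2 were -0.77, -0.59 and -0.78 and did not pass (adjusted p = 0.112, 0.0665 and 0.184). Rtn4rl2 also moved to -0.51 with GC and length offsets (edgeR adjusted p = 0.107) and to -0.51 without replicate 1 of the controls (edgeR adjusted p = 0.316). Without replicate 1 of the controls 3 genes of this list remained lower, as Rtn4r, Rtn4rl2 and Cntn1 no longer passed, and without replicate 1 of the treated libraries Rtn4r and Rtn4rl1 did not pass (edgeR adjusted p = 0.0857 and 0.0631). Pirb, another receptor of myelin proteins, did not pass the expression filter, with 25 and 9 counts in treated and 1 and 0 in control libraries. It was higher without a filter (edgeR adjusted p = 5.67e-06), with DESeq2 (adjusted p = 0.0119) and in 3 of the 4 fits that left out a library.

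Markers of other cells moved with the treatment as well, and their part in the rise of the myelin genes was not tested. Their counts stand beside shares of 20.7% higher and 19.9% lower among all tested genes. Of 10 astrocyte markers 8 were higher and 1 lower, with a summed level of 12594 to 12720 CPM with FGF2 and 7722 to 7772 CPM without. Of 10 pan-neuronal markers 8 were lower and 1 higher, with 2941 to 2974 CPM against 4016 to 4047 CPM. Of the 8 microglial markers 4 were tested and 3 were higher, and they summed to 33.9 to 37.2 CPM against 21.9 to 22.3 CPM. Of the 6 endothelial markers 3 were tested, of which Flt1 was higher and Kdr lower. Flt1 was counted 52 and 36 times in treated and 6 and 9 times in control libraries. It passed the expression filter only through the libraries with FGF2. The 6 endothelial markers summed to 7.71 to 9.89 CPM against 4.94 to 8.48 CPM, with Cldn5 at 0 counts in every library. Schwann cells, the myelinating cells of peripheral nerve, also express Mbp, Mag and Cnp, and of their defining genes Pmp2 had 0 counts in every library. The 7 Schwann cell markers summed to 223 CPM in both libraries with FGF2 and to 216 and 219 CPM without, most of it Drp2. Of the 4 tested, Pmp22 and Egr2 were higher, Drp2 was lower and Prx did not pass. Egr2, a factor of Schwann cells that many cells also induce as an immediate early gene, rose by 3.16 on the log2 scale.

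The 5 genes outside the set whose pattern over the 4 libraries was closest to the mean pattern of the 7 tested myelin genes were found among 12639 genes with a mean of at least 5 CPM, by the distance of their log2 levels centred on the controls. Sox10, at a distance of 0.141, was the single gene of the oligodendrocyte lists among them. The others were Rnf122 (0.0635), a ubiquitin ligase, Glycam1 (0.0848), a mucin-like glycoprotein, the transcript 9630013A20Rik (0.106) and H2-Q4 (0.115), a class I histocompatibility gene whose reads are hard to tell from those of its close relatives. Their log2 fold changes lay between 2.41 and 2.47. With 2 libraries in each group, such a likeness rests mainly on the size of the rise.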

How the data were processed

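Total RNA of mouse PFC cultures was sequenced in 4 libraries, 2 with FGF2 and 2 without. The authors mapped the reads to mm10 with HISAT2 2.1.0, kept reads with a mapping quality of at least 20 with Samtools and counted them per gene with HTSeq 0.11.2, and deposited unnormalized counts per gene for every library. The annotation release and the strand setting are not given in the sources used here. Of 55421 genes, 55240 matched GENCODE M21. Read pairs in no feature (43.2% to 45.9%) and ambiguous pairs (1.47% to 1.76%) were left out of totals and tests. Counts were fitted over 17144 genes with edgeR 4.0.16 in R 4.3.3 (TMM factors 0.992 to 1.01, its expression filter, robust quasi-likelihood test, Benjamini-Hochberg adjustment). Standard errors were derived from the log2 fold change and its F statistic.

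The 9 genes, the lists and the rule for named genes (all members, in each list the 2 highest and 2 lowest values past the threshold, and the 5 genes nearest in pattern) were chosen with earlier results of these data known. Other genes of the lists were named after their values were seen. Some genes of the lists are counted but not reported here by name. Replicates differed by more than sampling noise (chi-square per degree of freedom 2.28 with FGF2, 1.76 without, for genes averaging 10 counts or more). The fits were tested on simulated counts with 200 changed genes. At a 2-fold change edgeR called 169 of them and DESeq2 139. At a 1.2-fold change they called 25 and 4, so small changes were mostly missed. Longest transcripts were compared with BLAST 2.17.0. Alternatives were scaling by RLE, by the upper quartile or by total counts, other expression filters, DESeq2 1.42.0, limma-voom (limma 3.58.1), a replicate block, offsets for GC content and length (lowess, span 0.3), a threshold of 0.01 and each library left out in turn.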

Additional observations from a re-analysis of the deposited data

How the results depend on the processing

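The log2 fold changes of the 7 tested myelin genes did not change direction or lose their call in any alternative with an adjusted p-value, 102 values in all. The highest adjusted p-value among them was 0.0162, for Opalin with a library left out, and Opalin had no adjusted p-value with DESeq2 (log2 fold change 3.92) and was not tested without replicate 2 of the libraries with FGF2 or with at least 10 counts required in every library. The median of the myelin genes was 2.58, and it was 2.18 without an expression filter, 2.38 with at least 10 counts in every library, 2.17 with DESeq2, 2.67 with GC and length offsets and 2.67 with these and a replicate block. With each library left out in turn it lay between 2.39 and 2.65. The first 3 of these medians are over other sets of genes, since Mog and Ermn enter or Opalin leaves. The lowest median with a library left out, 2.39 without replicate 2 of the libraries with FGF2, likewise leaves out Opalin. The myelin genes relative to the lineage factors gave a difference of 0.73, which was 0.85 with a prior count of 0.1, -0.40 with Sox10 alone, 1.09 over the 6 genes with at least 10 counts in every library, -0.044 over these with Sox10 alone (both chosen after seeing the data) and 0.66 to 0.81 with a library left out. In the longest transcript scale 14 of 18 ranks were kept.

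With DESeq2, 4007 genes passed over all genes in place of 6949, of which 2068 were higher in place of 3541, and the lower genes numbered 0 in place of 1 among precursor and newly formed genes, 1 in place of 3 among maturation inhibitors and 3 in place of 6 among receptors and axonal partners. With a library left out the lower genes numbered 1 to 3 among the other myelin genes, 0 to 1 among precursor and newly formed genes and 3 to 6 among receptors and axonal partners. The other counts were within 1.5 times of the main value, 144 of 150 list counts in all. The replicate numbers are not known to pair the libraries, and the deviations of libraries with the same number had a correlation of 1.3e-05. With the replicate block 6814 genes passed in place of 6949 and all 7 tested myelin genes remained higher. Depth limits what can be said of Mog, Ermn and Opalin.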
